A study of Mus musculus with 250 samples.

Results

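Lrp4 and Tnfrsf19 are cell-surface receptors, and their rows in a single-cell count table of mouse tail epidermis are described here, 2 of 27003 genes. They had been picked because earlier summaries of the same cells showed both of them higher in the distal memory region than in control, so the region differences below are descriptions without a test. All 250 cells were taken from Lrig1CreER/Rosa-TdTomato mice, in which Cre is driven from Lrig1, a gene of upper hair follicle stem cells, and switches on a red reporter. All of them carry the label Lrig1 GL Sca1+ and the same time, 8 weeks, followed by an abbreviation, pw1, that the labels do not spell out. The wound bed gave 85 cells, a memory region distal to the wound gave 81, and a control region labelled as having no memory gave 84, and each of the 3 regions was run in 2 batches. The 6 sets of 1 region and batch are called plates. The series title concerns memory of injury held by progenitors at a distance from it, and the comparison asks how far each receptor marks that distal region. Since no animal is named, a region counts as 1 sample, no test between regions was possible, and any spread may be technical.

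Lrp4 is a single-pass receptor of the low-density lipoprotein receptor family. It binds the secreted inhibitors Sostdc1, Sost and Dkk1 and dampens canonical Wnt signalling, and with the kinase Musk it receives agrin at the neuromuscular junction. Tnfrsf19, also called Troy, is an orphan member of the tumour necrosis factor receptor superfamily. It signals through TRAF adaptors, is related to the ectodysplasin receptor Edar of skin appendages, and is known as a Wnt target gene and as a marker of stem and progenitor cells in several epithelia. Wnt signals control growth and regeneration of the hair follicle.

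Lrp4 (ENSMUSG00000027253.15) lies on the plus strand of chromosome 2 at chr2:91457511-91513779, and its annotated exons cover 7926 bases (GRCm38, GENCODE M21). Tnfrsf19 (ENSMUSG00000060548.13) lies on the minus strand at chr14:60963875-61046490, with 4563 bases of exon. The 5′ end of Tnfrsf19 overlaps the antisense long non-coding gene Gm41168 at chr14:61037960-61046490. Whether the counting used strand is not given in the sources used here, so reads from that stretch could belong to either gene. Gm41168 has no row of its own in the count table. Smart-Seq2 reads cover whole transcripts, so levels are set between the receptors only per kilobase of exon.

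RefSeq (GRCm38.p6) gave promoter windows for 1 of the 2 receptors, Tnfrsf19, which has 2 annotated starts. They are shown because the counts are per gene and do not separate transcripts from these starts. Each window is the 250 bases before a start, on the minus strand, 5′ to 3′, at chr14:61046856-61047105 for the distal start and chr14:61037988-61038237 for the proximal start. Capitals mark matches on either strand to CTTTGAT (reverse complement ATCAAAG), a core motif of the Wnt effectors TCF and LEF, and to GGGCGG, the GC box. The 2 motifs do not overlap.
Tnfrsf19 distal start: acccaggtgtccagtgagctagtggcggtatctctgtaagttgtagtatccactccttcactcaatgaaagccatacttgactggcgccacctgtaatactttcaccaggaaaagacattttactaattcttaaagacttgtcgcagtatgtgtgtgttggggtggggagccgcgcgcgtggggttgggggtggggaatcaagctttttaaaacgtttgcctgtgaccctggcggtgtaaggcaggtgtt
Tnfrsf19 proximal start: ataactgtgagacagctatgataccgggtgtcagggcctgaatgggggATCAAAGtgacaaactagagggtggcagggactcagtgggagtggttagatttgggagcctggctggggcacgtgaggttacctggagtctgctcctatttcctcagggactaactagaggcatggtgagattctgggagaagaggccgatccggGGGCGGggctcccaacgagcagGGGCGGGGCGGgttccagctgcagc
The proximal window held 1 match to CTTTGAT, starting at position 49 and on the reverse strand, and 3 to GGGCGG, at positions 204, 226 and 231. Positions count from 1 at the 5′ end, and the last 2 GC boxes share 1 base. The distal window held neither, and held 3 matches to the E-box letters CACCTG (reverse complement CAGGTG), which are left in lower case. Of 32851 windows of the same length in the table, 3.21% held CTTTGAT, 32.7% GGGCGG and 17.2% CACCTG. GC content was 50% with 9 CpG sites in the distal window and 59.2% with 8 in the proximal window, against medians of 52.4% and 6 over all windows. Both starts lie within the annotated span of Gm41168, chr14:61037960-61076802.

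Depth was uneven. Cells had 3857 to 3119120 reads (median 49298), plates 1751116 to 10671470 in sum, and 4 distal cells of batch 1 with over 500000 reads held 72.8% of their plate's reads. The median cell held 63690 reads in control, 47047 distally and 41206 in the wound bed. Mitochondrial transcripts took 41.8% of reads in distal batch 1 and 23.5% to 31.2% in the other plates. With library sizes that leave out these transcripts and predicted genes, the log2 ratio of distal cells to control, as a mean of both batches, was 6.12 for Lrp4 and 5.77 for Tnfrsf19, against 5.93 and 5.56 with them. Krt14 and Krt5, the basal keratins of epidermis, had reads in 214 and 174 of the 250 cells, and Lrig1 itself in 33. Markers of other cell types were near 0 in most plates: the 6 immune markers summed to 25.3 CPM (reads scaled to library size) in distal batch 2, in 2 cells, and to at most 5.21 CPM elsewhere, and the 3 Merkel cell markers to at most 0.248 CPM. The 8 fibroblast markers summed to at most 72.5 CPM, in control batch 1, and to 0 in both wound bed plates. The 4 melanocyte markers summed to 204 CPM in distal batch 1, where 3 cells had any, and to at most 1.99 CPM elsewhere.

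Both receptors were found in few control cells and in a larger share of distal and wound bed cells. Lrp4 had a read in 6 control cells (7.14%, exact Clopper-Pearson 95% interval 2.67% to 14.9%), 27 distal cells (33.3%, 23.2% to 44.7%) and 21 wound bed cells (24.7%, 15.99% to 35.3%). Tnfrsf19 had a read in 7 control cells (8.33%, 3.42% to 16.4%), 29 distal cells (35.8%, 25.4% to 47.2%) and 24 wound bed cells (28.2%, 19.001% to 39.04%). For each receptor the control interval lay below the distal and wound bed intervals, and those of the distal region and the wound bed overlapped widely. The description of both genes as high in the distal region, which rests on the comparison with control that chose them, does not extend to a separation from the wound bed. Intervals cover counting error only, since cells of 1 animal are not independent.

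**Figure D1:**
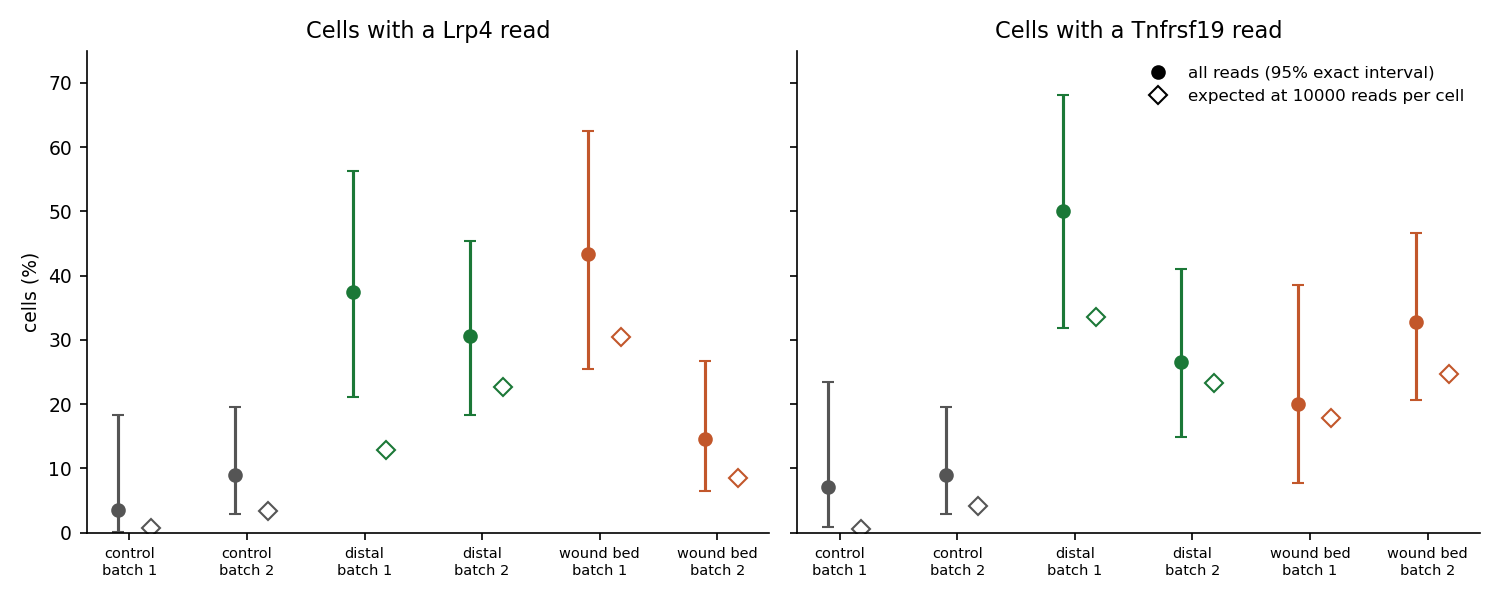
Share of cells with at least 1 read of Lrp4 or Tnfrsf19 in each plate (percent of cells), as filled points with exact 95% intervals, beside the share expected at 10000 reads a cell as open diamonds. All 4 control plate values, 2 for each receptor, lie at or below 8.93%, and the distal and wound bed plates lie between 14.5% and 50%.

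The order of the distal region and the wound bed changed between batches, in opposite ways for the 2 receptors. For Lrp4 the shares in batches 1 and 2 were 3.57% and 8.93% in control, 37.5% and 30.6% among distal cells and 43.3% and 14.5% among wound bed cells. For Tnfrsf19 they were 7.14% and 8.93% in control, 50% and 26.5% among distal cells and 20% and 32.7% among wound bed cells. Lrp4 was thus detected in a larger share of wound bed than of distal cells in batch 1 and in a smaller one in batch 2, and Tnfrsf19 the reverse.

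Part of detection follows depth, since a deeper cell has more chances to show a rare transcript. Among distal cells the median depth was 63565 reads with Lrp4 and 39333 without it, and among wound bed cells 78351 and 33023. For Tnfrsf19 these medians were 86362 and 31941 among distal cells and 46768.5 and 36476 among wound bed cells. Had every cell been read to 10000 reads, leaving out 1 control, 4 distal and 7 wound bed cells that were shallower, Lrp4 would be expected in 2.45% of control, 18.6% of distal and 16.7% of wound bed cells. Tnfrsf19 would be expected in 3.01%, 27.5% and 22.2%. At equal depth control remained lowest for both, and the 2 other regions lay closer together than to control. By plate, Lrp4 was then expected in 12.9% and 22.7% of distal cells and 30.4% and 8.50% of wound bed cells, so for Lrp4 the batch 1 order, with the wound bed above the distal region, became wider. Tnfrsf19 was expected in 33.5% and 23.2% of distal cells and 17.9% and 24.7% of wound bed cells. Its batch 2 order thus nearly vanished at equal depth.

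**Figure D2:**
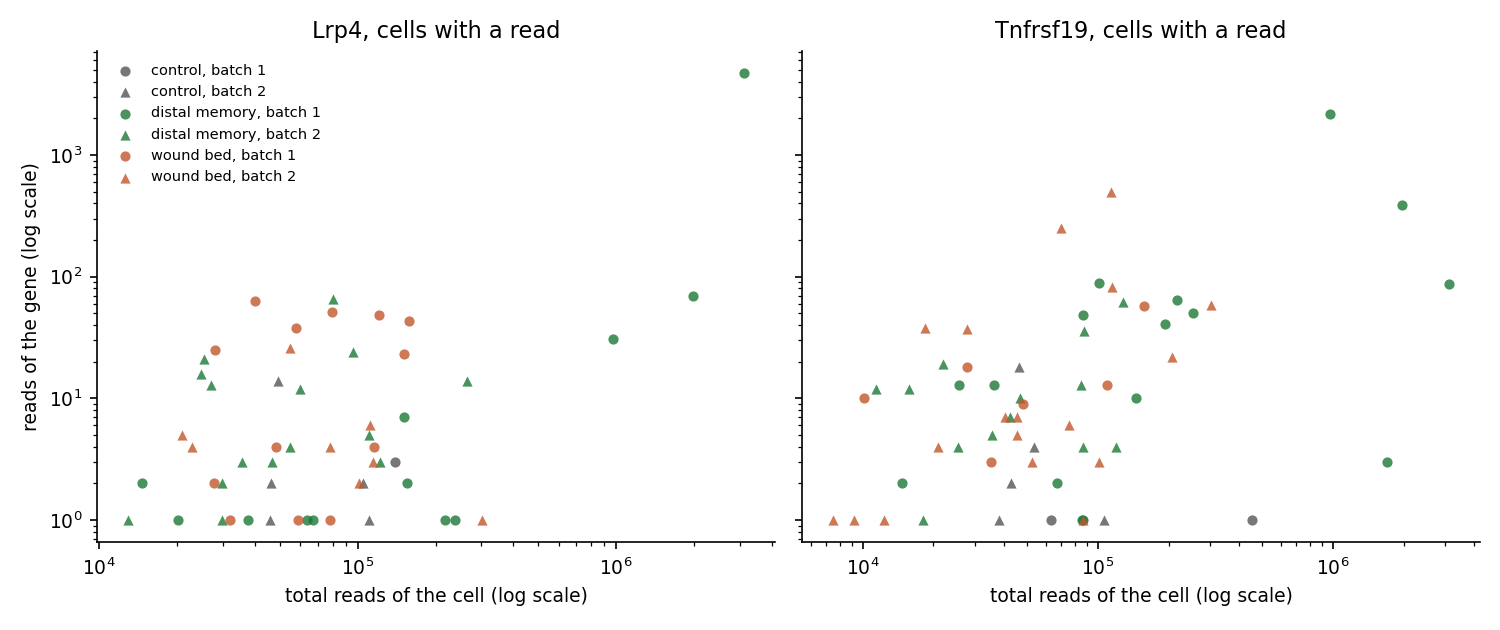
Reads of each receptor (log axis) against total reads (log axis) in every cell with at least 1 read of it, coloured by region, with batch shown by marker shape. The distal batch 1 cell of 3119120 reads stands far to the upper right for Lrp4, with 4711 reads.

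The number of Lrp4 reads behind these shares was small in control. The only Lrp4-positive control cell of batch 1 had 3 reads, and the 5 of batch 2 had 14, 2, 2, 1 and 1. In distal batch 1 the 12 positive cells ran from 1 read to 4711 with a plate sum of 4828, and in distal batch 2 the 15 positive cells ran from 1 to 66 with a sum of 188. In wound bed batch 1 the 13 positive cells ran from 1 to 63 with a sum of 304, and in batch 2 the 8 ran from 1 to 26 with a sum of 51. At 5 or more reads, Lrp4 was left in 1 control, 12 distal and 10 wound bed cells. The sums of distal batch 1 and control batch 1 thus came almost wholly or wholly from 1 cell each.

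That cell carried 97.6% of the Lrp4 reads of its plate. It was the deepest of all 250, with 3119120 reads, and its Lrp4 level was 1510 CPM. The other 3 distal cells with over 500000 reads had 69, 31 and 0 Lrp4 reads, and the 28 remaining cells of the plate had 17 among them. In the other plates with more than 1 positive cell, the cell with most Lrp4 reads held 70% of the reads in control batch 2, 35.1% in distal batch 2, and 20.7% and 50.98% in the wound bed. To hold 90% of the reads took 1 cell in distal batch 1, 8 in distal batch 2, 7 in wound bed batch 1 and 6 in wound bed batch 2. Among 1222 genes detected in a like number of distal batch 1 cells (within 2), the top cell held a median 45.5% of reads, and 0 genes reached the 97.6% of Lrp4.

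The deep cell had a mixed make-up. Of the keratins of differentiated epidermis Krt10 stood at 20194 CPM and Krt2 at 10557 CPM, while Krt1, the partner of Krt10, stood at 1.28 CPM. It had 0 reads of the basal keratins Krt5 and Krt14, but the basal linker Dst stood at 1371 CPM, and Trp63, the p63 master regulator of stratified epithelium, stood at 1222 CPM. Mitochondrial transcripts took 38.5% of its reads. In distal batch 2 the cell with most Lrp4 reads, 66 at 825 CPM, had Krt14 at 8651 CPM and the basal and bulge keratin Krt15 at 5676 CPM, and 0 reads of Krt10. Wound bed batch 1 held the highest Lrp4 level of all, 1579 CPM from 63 reads in a cell of 39895 reads. High Lrp4 levels thus occurred in cells of unlike keratin make-up and in both regions.

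Among the cells with a read, Lrp4 levels were not uniformly higher in the distal region. Median CPM in positive cells was 29.2 in distal batch 1 and 77.4 in distal batch 2, against 153 and 52.3 in the wound bed and 21.4 and 21.8 in control. A level of 100 CPM or more was reached by 1 control, 8 distal and 10 wound bed cells. Averaged over all cells of a plate with equal weight, Lrp4 stood at 0.766 and 6.75 CPM in control, 59.01 and 76.6 CPM among distal cells, and 162 and 19.01 CPM among wound bed cells. The wound bed of batch 1 was highest and both distal plates came next, above the wound bed of batch 2.

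**Figure D3:**
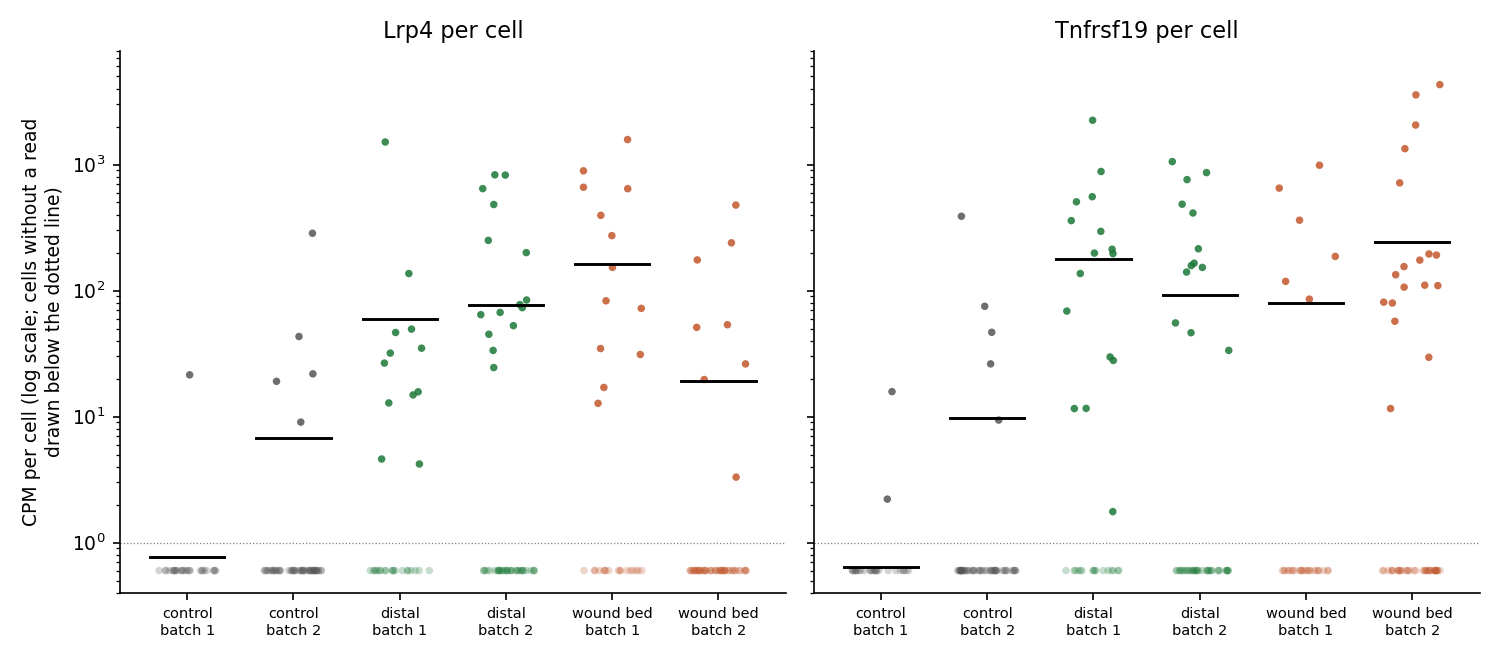
Lrp4 and Tnfrsf19 level in every cell, by plate, on a log axis of CPM, with cells without a read drawn below the dotted line and black bars at the mean over all cells of the plate. The highest Lrp4 cell is in wound bed batch 1 (1579 CPM) and the highest Tnfrsf19 cell in wound bed batch 2 (4309 CPM).

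Tnfrsf19 reads were spread over more cells. Control held 2 cells with 1 read each in batch 1, and 5 in batch 2 with 18, 4, 2, 1 and 1. In the distal region the 16 positive cells of batch 1 ran from 1 to 2183 reads with a sum of 2999, and the 13 of batch 2 from 1 to 62 with a sum of 189. In the wound bed the 6 positive cells of batch 1 ran from 3 to 57 with a sum of 110, and the 18 of batch 2 from 1 to 492 with a sum of 1019. At least 5 reads were found in 1 control, 20 distal and 16 wound bed cells, and at least 100 CPM in 1, 20 and 18. More Tnfrsf19 than Lrp4 cells of the distal region and wound bed passed either of these stricter levels.

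For Tnfrsf19 too a single distal cell weighed heavily, though less. In distal batch 1 a cell of 971643 reads held 72.8% of the plate's Tnfrsf19 reads, at 2247 CPM, and a cell of 1977308 reads had a further 392 reads. The 28 cells under 500000 reads had 334 Tnfrsf19 reads among them, in 12 cells, so the receptor was well represented outside the deep cells. Among 667 genes of like detection the median top-cell share was 39.4%, and 39 of them (5.85%) reached 72.8%. The top cell held 32.8% in distal batch 2, 51.8% in wound bed batch 1 and 48.3% in wound bed batch 2, where 585 like genes had a median of 29.9%.

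The leading Tnfrsf19 cells also differed in keratins between plates. The distal batch 1 cell of 971643 reads had Krt10 at 17484 CPM, Krt2 at 16346 CPM and 0 reads of Krt5 and Krt14. In distal batch 2 the cell with most Tnfrsf19 reads, at 485 CPM, had Krt14 at 3704 CPM, Krt5 at 399 CPM and Krt10 at 274 CPM. The 2 distal cells were thus unlike each other. The 2 highest cells of wound bed batch 2, with 492 and 250 Tnfrsf19 reads at 4309 and 3573 CPM, had Krt14 at 6078 and 5688 CPM. Median Tnfrsf19 CPM in positive cells was 8.999 and 46.7 in control, 197 and 165 among distal cells, and 274 and 144 among wound bed cells. The equal-weight plate means were 0.643 and 9.75 CPM in control, 179 and 92.7 CPM among distal cells, and 79.7 and 244 CPM among wound bed cells. Control was lowest in both batches, the distal region highest in batch 1 and the wound bed in batch 2.

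Per kilobase of exon, mean cell levels of Lrp4 in batches 1 and 2 were 0.0966 and 0.852 CPM per kb in control, 7.45 and 9.66 among distal cells, and 20.4 and 2.40 among wound bed cells. Those of Tnfrsf19 were 0.141 and 2.14 in control, 39.3 and 20.3 among distal cells, and 17.5 and 53.5 among wound bed cells. Per length, Tnfrsf19 was the higher of the receptors in 5 of 6 plates, the exception being wound bed batch 1.

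For ratios between regions, reads were summed per plate and scaled by the trimmed mean of M values (TMM), and the log2 ratio of CPM + 1 was taken within each batch. Summed Lrp4 stood at 0.851 and 4.001 CPM in control, 638 and 53.2 CPM among distal cells, and 168 and 15.4 CPM among wound bed cells. Lrp4 was higher in the distal region than in control by 8.43 and 3.44 on the log2 scale in batches 1 and 2. As ratios of CPM these were 750.4 (exact Poisson 95% interval 257 to 3640, from the 3 control reads) and 13.3 (8.36 to 22.3). Such intervals cover the counting of reads only, which are not independent molecules, and do not cover the weight of single cells. Leaving out each single cell in turn gave 3.63 to 9.32 and 2.87 to 4.61, so the batch 1 size, not its direction, rested on the deep cell. Without the 4 cells of over 500000 reads the batch 1 ratio was 2.02. Without the 1 positive control cell of batch 1 and without the deep distal cell, distal Lrp4 was 24.9-fold above a floor of 3 counts over the control plate. That value still rested on deep cells. Of its 117 distal reads, 69 and 31 came from other cells of over 500000 reads, and 17 from the 28 remaining cells.

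Summed Tnfrsf19 stood at 0.567 and 5.20 CPM in control, 396 and 53.4 CPM among distal cells, and 60.8 and 308 CPM among wound bed cells. Its log2 ratio of the distal region to control was 7.99 and 3.13. The ratios of CPM were 699 (193 to 5776, from 2 control reads) and 10.3 (6.80 to 16.1). Leaving out single cells gave 6.25 to 8.44 and 2.64 to 4.38.

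Against a size rule of at least 1 on the log2 scale in both batches with the same sign, 8.07% of the 6356 genes considered were higher in the distal region than in control, and both receptors were among these 513 genes. To be considered, a gene needed a read in 10% or more of the cells of either region compared, in each batch. Lower in the distal region by the same rule were 6.09%, and the single batches alone had 35.7% and 19.5% of genes higher. By the smaller batch ratio Lrp4 was number 15 and Tnfrsf19 number 27 of 6356. The median over all genes of the mean of both batches was 0.06. Since both were chosen from this contrast, the ranks only describe them.

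The wound bed was also above control for both receptors. This comparison uses the same control plates, and 7.83% of 5776 genes were higher by the same rule, both receptors included. The Lrp4 log2 ratios were 6.51 and 1.71 (leaving out single cells, 6.21 to 7.40 and 0.80 to 2.89), or 198 (66.99 to 964) and 3.85 (2.25 to 6.82) as ratios of CPM. The Tnfrsf19 log2 ratios were 5.30 and 5.64 (4.41 to 5.59 and 4.75 to 6.88), or 107 (29.001 to 897, from 2 control reads) and 59.2 (40.1 to 91.0) as ratios of CPM. By the smaller ratio Tnfrsf19 was number 2 and Lrp4 number 197 of 5776. For Lrp4 in batch 2 the 51 wound bed reads included 26 from 1 cell, and the ratio was 0.80 without it.

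Between the distal region and the wound bed neither receptor had a stable direction. By the size rule 9.59% of 6285 genes were higher in the distal region, Lrp4 among them, and 5.28% were lower. Scaled by total counts the split was 479 higher and 484 lower in place of 603 and 332. The Lrp4 log2 ratios were 1.92 and 1.72, and leaving out single cells gave −2.89 to 2.22 in batch 1 and 1.15 to 2.64 in batch 2. The lowest batch 1 value was the one without the deep cell, and without all 4 cells of over 500000 reads it was −4.53. With every cell weighted equally, the Lrp4 ratios were −1.44 and 1.96, so the wound bed was then the higher in batch 1. The Tnfrsf19 ratios had opposite signs, 2.68 and −2.50, with 0.95 to 3.58 and −3.00 to −1.61 over single cells left out. Tnfrsf19 therefore did not meet the rule, and its order of regions differed by batch whichever cell was left out. Region and plate cannot be told apart within a batch, since each plate held 1 region.

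**Figure D4:**
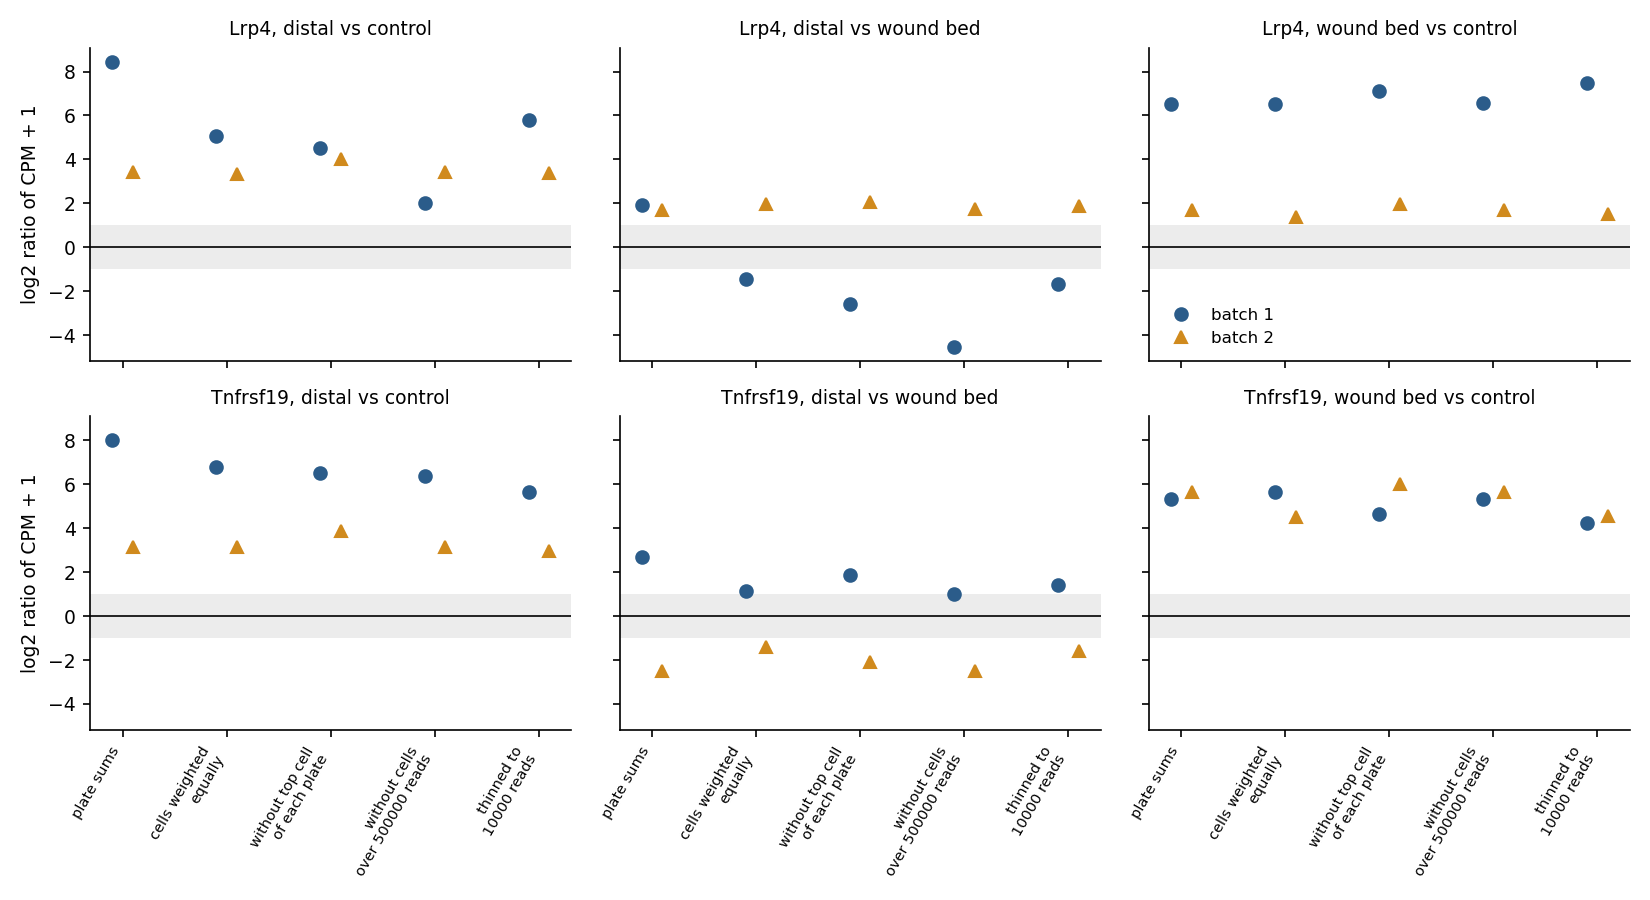
Log2 ratios between regions in batch 1 and batch 2 for each receptor, as plate sums and under other ways of weighting or leaving out cells, with a grey band from −1 to 1. All ratios to control are above 0, whereas the distal to wound bed ratios lie on both sides of 0.

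The receptors were found together in few cells. Both had reads in 17 of 250 cells, Lrp4 alone in 37, Tnfrsf19 alone in 43 and neither in 153. Co-detection was seen in 1 control cell (1.19%), 9 distal cells (11.1%, 5.21% to 20.05%) and 7 wound bed cells (8.24%, 3.38% to 16.2%). By plate it was 0 and 1 in control, 6 and 3 among distal cells, and 3 and 4 among wound bed cells. A cell with at least 1 of the receptors was the more common case, at 14.3% of control, 58.02% of distal and 44.7% of wound bed cells.

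In the distal region 33.3% of Lrp4-positive cells had Tnfrsf19 against 37.04% of Lrp4-negative cells, in the wound bed 33.3% against 26.6%, and in control 16.7% against 7.69%, from 6 Lrp4-positive cells. By batch the distal values were 50% against 50% and 20% against 29.4%, and the wound bed values 23.1% against 17.6% and 50% against 29.8%. Over all regions the values were 31.5% and 21.9%, a pooling that mixes regions with unlike shares of each receptor. Of the 17 cells, 4 had at least 5 reads of each, and in 7 at least 1 receptor rested on 1 or 2 reads. The co-detected cells had a median of 67283 reads, and the other cells 49121. The 3 deepest of them were distal cells of batch 1 with 4711 and 87, 69 and 392, and 31 and 2183 reads of Lrp4 and Tnfrsf19. In each of these deep cells 1 receptor outnumbered the other. At 10000 reads a cell, co-detection would be expected in 0.459% of control, 4.56% of distal and 4.17% of wound bed cells.

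**Figure D5:**
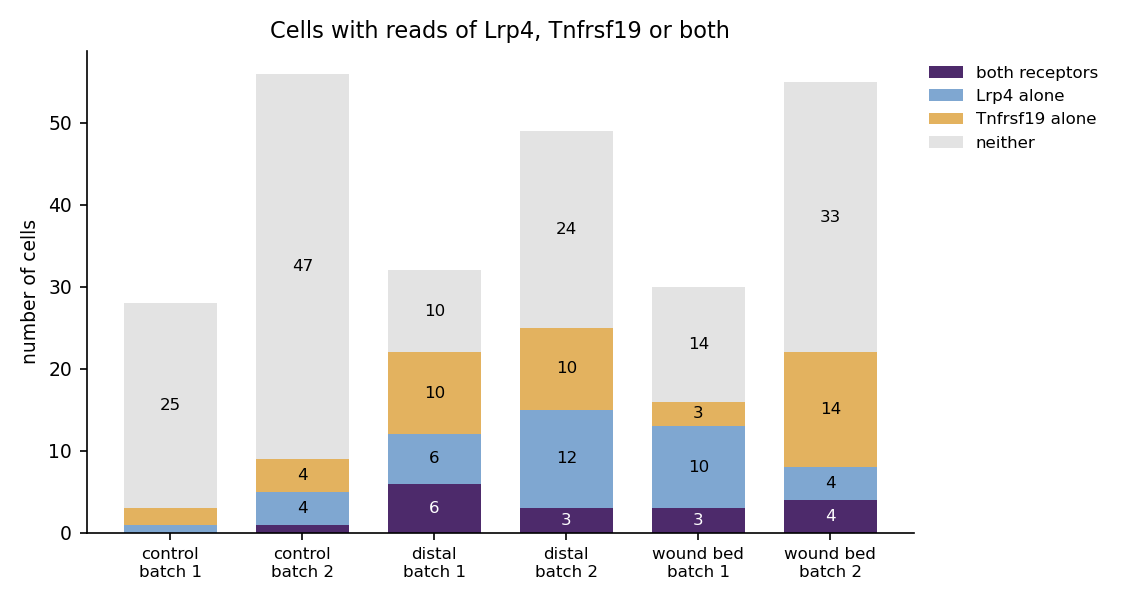
Cells with reads of both receptors, of Lrp4 alone, of Tnfrsf19 alone or of neither in each plate, stacked as numbers of cells, with classes of under 3 cells unlabelled. In no plate are cells with both the most numerous class. They equal the cells with Lrp4 alone in distal batch 1 (6) and wound bed batch 2 (4), and those with Tnfrsf19 alone in wound bed batch 1 (3).

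Across the 250 cells, with plate means removed, log2 levels of the receptors had a Pearson r of 0.03, and −0.00 without the deep cells. The genes with the highest r to Lrp4 among 5336 compared were the long non-coding RNA Xist (0.36), Smg6 (0.35), Setd5 (0.33), Syne2 (0.32) and Neat1 (0.32), another long non-coding RNA. For Tnfrsf19 they were the transcription factor Sox21 (0.31), the growth factor receptor Fgfr3 (0.31), Rab30 (0.29), Rpf1 (0.27) and Snx27 (0.27). The 2 sets of 5 shared no gene, and in counts this sparse such weak values describe these cells only. Cells of a plate share their depth range and processing.

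Over the 6 plates, log2 summed levels of the receptors had r = 0.80 with each other, as both were lowest in the 2 control plates. Nearest to Lrp4 among 2053 genes were Eif4a1 (0.97), Scaf11 (0.97), Cfl1 (0.96), Usp15 (0.95) and Fubp1 (0.94), and to Tnfrsf19 Rsl24d1 (0.99), Idh3a (0.98), Ociad1 (0.98), Prr13 (0.98) and Hmgcs1 (0.97). In these lists of 2053 genes, Tnfrsf19 stood at place 101 for Lrp4, and Lrp4 at place 117 for Tnfrsf19. Over cells the places were 3690 and 2692 of 5336. Both receptors were picked for a higher level in the distal region than in control. A positive r over plates that include control was therefore largely set by that choice. All values over plates rest on 6 points that share regions and batches and are given as a description.

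Cells with a receptor were set beside cells without it in the same region, after thinning all to 10000 reads for the marker genes. In the distal region Dst, a basal hemidesmosome linker, was found in 88.9% of Lrp4-positive cells and 48% of Lrp4-negative cells, and Krt5 in 74.1% and 46%. Suprabasal Krt10 was also the more frequent in Lrp4-positive distal cells, at 70.4% and 52%. In the wound bed the basal keratins went the other way, with Krt5 in 61.9% of Lrp4-positive and 73.7% of Lrp4-negative cells and Krt14 in 66.7% and 80.7%. Basal Col17a1 was also less frequent with Lrp4 there (71.4% and 77.2%). Dst (80.95% and 77.2%) and Itgb4 (14.3% and 12.3%) were slightly more frequent with Lrp4 there, so the basal markers did not move as one. Distal Tnfrsf19-positive cells had Krt10 in 75.9% against 47.9%, Krt14 in 58.6% against 79.2%, and the follicle and stress keratin Krt17 in 6.90% against 33.3%. Other upper follicle markers were mixed among these distal cells. Krt79 (10.34% against 16.67%) and Sostdc1 (34.48% against 47.92%) were less frequent with Tnfrsf19. Cst6 (31.03% against 29.17%) and Defb6 (34.48% against 33.33%) were slightly more frequent with it. In the wound bed Krt17 was found in 0 of 22 Tnfrsf19-positive cells and 21.4% of the negative ones, and Krt10 in 77.3% and 78.6%. Krt14, Krt5 and Dst were there more frequent with Tnfrsf19 than without it, at 86.4% and 73.2%, 81.8% and 66.1%, and 95.5% and 71.4%. In the distal region Krt14, Krt5 and Dst were less frequent with it. Basal Itgb4 was more frequent with Tnfrsf19 in both regions, at 27.6% and 18.75% distally and 22.7% and 8.93% in the wound bed. Wound bed Lrp4-positive cells had the lipid enzyme Scd1 in 80.95% against 33.3%, a gap far smaller in the distal region (40.7% and 34%). These shares were picked after their values were seen, carry no test, and compare cells of 1 sample. Each region also pools 2 batches with unlike shares of the receptors and markers, so batch may be mixed into the gaps. In the wound bed, for example, Krt5 had reads in 20 of 30 cells of batch 1 and 46 of 55 of batch 2 before thinning. The gaps were not split by batch. Summed markers moved with the regions as well: the 10 upper follicle markers summed to 13045 and 35344 CPM in control, 3022 and 8405 CPM among distal cells, and 2414 and 14641 CPM among wound bed cells. Their part in the receptor values was not tested.

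Among the ligands and partners of Lrp4, 5 of 9 genes in the table were considered for the distal region against control and 0 met the rule, with a median log2 ratio of −0.84. Over all genes 8.07% were higher and 6.09% lower, so 0 of 5 says little. Sostdc1, the secreted Wnt and BMP inhibitor also called Wise, had reads in 130 cells and stood at 328 and 603 CPM in control, 211 and 291 CPM among distal cells, and 97.3 and 139 CPM among wound bed cells. It was higher in the distal region than in the wound bed (1.11 and 1.06) and lower in the wound bed than in control (−1.74 and −2.11). In plate sums the ligand was thus highest in the control plates, where Lrp4 was lowest. Cells thinned to equal depth did not show this order: Sostdc1 was found in 42.59% of Lrp4-positive and 42.93% of Lrp4-negative cells. It was more frequent with Lrp4 in the distal region (44.44% against 42%) and the wound bed (42.86% against 29.82%). In control it was less frequent (33.33% against 53.25%), from 6 Lrp4-positive cells. A link between ligand and receptor was not tested. Mesd, the chaperone that folds LRP receptors, was lower in the wound bed than in control (−2.58 and −1.23), as was Apoe, a lipoprotein ligand of the family (−1.94 and −2.95). By the rule 8.24% of 5776 genes were lower in the wound bed than in control. Agrin (Agrn) was found in 41 cells at 1.11 to 20.2 CPM and met the rule in no comparison. Dkk1 and Musk had no read in any cell.

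Of 14 LDL receptor family genes in the table besides Lrp4, 4 were considered for the distal region against control and 0 met the rule in any of the 3 comparisons. Their median log2 ratio of the distal region to control was 0.28, and with 8.07% of all genes higher and 6.09% lower, so few genes say little about the family. Lrp6, a Wnt co-receptor, was found in 37 cells at 24.7 and 14.6 CPM in control, 27.2 and 30.5 CPM among distal cells, and 0 and 29.6 CPM among wound bed cells. Lrp5, the other Wnt co-receptor, was found in 10 cells. Of 23 TNF receptor family genes besides Tnfrsf19, 7 had no reads, 4 were considered and 0 met the rule in any comparison, with a median of −0.20. Edar had a read in 1 cell, and Tnfrsf1a, the main receptor for tumour necrosis factor, was found in 81 cells with log2 ratios of −0.56 and 0.83. Of the 11 adaptors and kinases below these receptors, Edaradd, the adaptor of Edar, was lower in the wound bed than in control (−3.52 and −2.14). It had no read in either wound bed plate, so these ratios depend on the pseudocount. For the distal region against control, 3 of the 11 were considered and 0 met the rule, beside 8.07% higher and 6.09% lower over all genes. As with the TNF receptor family, so few genes say little.

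In the Wnt receptor complex, 10 of 21 genes in the table were considered for the distal region against control, and 1 was higher, near the 8.07% over all genes. That was Znrf3, a ligase that removes Frizzled receptors and is itself a Wnt target, at 3.69 and 20.2 CPM in control, 14.5 and 57.7 CPM among distal cells and 13.3 and 78.2 CPM among wound bed cells. Its ratios were 1.73 and 1.47 for the distal region and 1.61 and 1.90 for the wound bed, against control. Like both receptors it was lowest in control within each batch, and its distal to control ratios were smaller than theirs. Against the wound bed, the Frizzled receptors Fzd7 (1.93 and 4.28) and Fzd3 (1.49 and 1.09) and the Dkk receptor Kremen1 (1.41 and 2.38) were higher in the distal region, and Fzd6 was lower (−1.22 and −1.33), which made 3 higher and 1 lower of 10 considered beside 9.59% and 5.28% over all genes. Fzd3 and Fzd7 were lower in the wound bed than in control. The R-spondin receptor Lgr4 was found in 84 cells and met the rule nowhere, and its relatives Lgr5 and Lgr6 were found in 6 and 7 cells.

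Of 17 Wnt target genes in the table, 6 were considered for the distal region against control, and Znrf3 alone was higher, with 0 lower, beside 8.07% and 6.09% over all genes. Their median log2 ratios were −0.10 in batch 1 and 0.21 in batch 2. Axin2, the most used readout of canonical Wnt signalling, was found in 16 cells, at 8.22 and 7.80 CPM in control, 4.89 and 1.41 CPM among distal cells, and 1.11 and 0.302 CPM among wound bed cells, and was too sparse to be considered. Sox9, a follicle stem cell factor, was lower in the wound bed than in control (−3.78 and −1.02). Cdh3, P-cadherin of the hair germ, is not in this list but among 11 bulge and hair germ markers. It met the rule for the distal region against control (1.57 and 2.24), from 22 cells. Of the 6 such markers considered it was the 1 called higher, with 0 lower, beside 8.07% and 6.09% over all genes. In both batches 3 of the 6 were above control and 3 below, with a median of −0.04.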

How the data were processed

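The deposited table holds whole-number counts of reads per gene and cell from Smart-Seq2, which has no molecular identifiers, and the values were used as the authors deposited them. Per the submitters' processing notes, the tools were Seurat, R 4.0.3 and Salmon 0.13.1 and the build was mm10 (GRCm38), with no role or order given. Of 27003 genes, 5495 had no read and 26417 symbols matched GENCODE M21. All 250 columns matched a label, no 2 cells were identical, and no cell was left out of the main values. Doublets were not called.

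Counts were summed per plate and scaled by TMM (edgeR 4.0.16, R 4.3.3), with a pseudocount of 1. No test between regions was run. Shares have exact 95% intervals, and equal-depth shares are exact expectations. The ratio step was tested on simulated data. The alternatives were other normalisations (total counts, DESeq2 1.42.0 size factors, library sizes without mitochondrial and predicted genes), pseudocounts, detection filters, cell filters, weights, thinning and single batches. Leaving out each single cell and the marker shares within regions were added after seeing the data.

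Lrp4, Tnfrsf19 and the 17 gene lists were chosen with earlier results of these data known. Other genes are named where they were among the 5 with the highest r to a receptor (by cell, with a read in at least 10% of cells; by plate, in at least 25% of distal cells), where they met the size rule as a list member, or where they belonged to a short set named in advance (Lrp5, Lrp6, Lgr4, Lgr5, Lgr6, Edar, Sostdc1, Dkk1, Agrn and Axin2). Markers, single-cell keratin values, Musk and Tnfrsf1a were chosen after their values were seen.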

Additional observations from a re-analysis of the deposited data

How the results depend on the processing

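Distal cells and wound bed cells kept both receptors above control by at least 1 on the log2 scale under all 14 alternatives run for plate ratios. Dropping the detection filter or raising it to 25% leaves a gene's ratio unchanged, so those settings could not alter this. With the 25% filter neither receptor would have been considered for the wound bed against control. Lrp4 reached only 14.5% of wound bed cells in batch 2, and Tnfrsf19 20% in batch 1. Only Lrp4 in wound bed batch 2 went below 1, at 0.80, when a single cell was left out. The log2 ratio (mean of both batches, or 1 batch) ranged from 2.73 to 8.43 (Lrp4) and 3.13 to 7.99 (Tnfrsf19) for the distal region and from 1.71 to 6.51 and 4.25 to 5.84 for the wound bed. The distal to wound bed ratio of Lrp4, 1.82 as a mean, was 0.26 with equal weight per cell, 0.11 after thinning to 10000 reads, −1.40 without cells over 500000 reads and −0.26 without the cell with most Lrp4 reads in each plate. That of Tnfrsf19, 0.09, was −0.13 with total counts, −0.11 with equal weight, −0.74 without cells over 500000 reads, −0.35 in cells with at least 2000 genes, −0.088 after thinning, −0.13 without the top cells, 2.68 in batch 1 alone and −2.50 in batch 2 alone. The 900, 935 and 928 genes that met the rule (distal to control, distal to wound bed, wound bed to control) became 1905, 1987 and 1992 with no detection filter, 250, 247 and 246 with a filter of 25%, 1496, 1731 and 1719 in cells with at least 2000 genes, 397, 488 and 574 after thinning, 3912, 3344 and 3276 in batch 1 alone and 2641, 3319 and 2549 in batch 2 alone. The higher genes were 57%, 64.5% and 48.7% of these, 45.2% with the 25% filter for the first comparison, 49.7% with total counts, 47.3% after thinning and 50.1% in batch 2 alone for the second, 46.99% in batch 2 alone for the first and 58.7% after thinning for the third. At 5 or more reads the shares of control, distal and wound bed cells were 1.19%, 14.8% and 11.8% (Lrp4), 1.19%, 24.7% and 18.8% (Tnfrsf19) and 0%, 3.70% and 1.18% (both). At 10000 reads Lrp4 was expected in 2.45% of control and 18.6% of distal cells, Tnfrsf19 in 3.01% of control cells and both in 4.56% of distal cells. At 5000 reads the shares were 1.59%, 12.8% and 12.2% (Lrp4) and 2.01%, 21.02% and 17.8% (Tnfrsf19), with both in 2.09% of distal and 2.16% of wound bed cells. Lrp4 was found in 50% of wound bed cells with at least 2000 genes, in 43.3% in batch 1 alone and in 14.5% in batch 2 alone, both receptors in 19.2% of the first of these, Tnfrsf19 in 50% of distal cells of batch 1, and both in 0% of control cells of batch 1. Apart from leaving out cells or reads, the cause of these changes was not tested. Only 2 and 3 control reads stand behind the batch 1 ratios of Tnfrsf19 and Lrp4. No paired analysis was possible because the labels give cells no replicate number that pairs them across regions and each region is 1 sample without a test.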
